A study of Chlorocebus sabaeus with 4 samples.

Results

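The comparison described here is that of sample 2 with sample 1 in the calorie restriction animal of a pilot study on weight gain and loss. It was chosen by label: of the 4 arrays of the series, the 2 that carry the calorie restriction diet were taken, and every change is the log2 signal of sample 2 minus that of sample 1. Both samples were corpus luteum of monkey 1031, an adult female vervet monkey (Chlorocebus sabaeus) aged 16 years. The other 2 arrays were samples 1 and 2 of monkey 1030, also a female of 16 years, fed ad libitum, and they are given beside the first pair. No genotype or drug is named in the labels, and the diet was the only difference stated between the animals. The labels do not say which sample number was collected first, at what body weight, or at which stage of the luteal phase. Each side of the comparison is 1 array of 1 animal, so no value has a replicate check or a p-value, and "higher" and "lower" describe these 2 arrays.

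The corpus luteum is the gland that replaces a follicle after ovulation, and progesterone is its main product. Its large luteal cells derive mainly from granulosa cells and its small luteal cells mainly from theca cells, and both lie in a dense capillary bed. Luteinising hormone sustains the gland through cyclic AMP, cholesterol enters mitochondria to be cut to pregnenolone, and the gland regresses when that support ends. Steroid output thus rests on mitochondria, cholesterol supply and blood vessels, and a young gland also holds dividing endothelial and stromal cells.

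Probe sets designed on human genes gave values for 19775 genes, and 9888 of them had a mean log2 signal over the 4 arrays at or above 5.26, the median of all genes. Counts below are over these 9888. Each gene is given by its brightest probe set. Array medians over all probe sets ranged from 3.96 to 4.00. The 18 bacterial hybridisation controls averaged 10.09 in sample 1 and 10.54 in sample 2, and all 18 were higher in sample 2 (mean difference 0.45). The 24 poly-A controls averaged 2.44 in both samples, below the level filter and the array medians. Their difference of 0.0023 was read at that low signal and does not show whether labelling was equal. The difference between 3' and 5' probe sets was 1.31 and 1.41 for GAPDH and 1.48 and 1.73 for ACTB in samples 1 and 2. The part of these technical differences in the gene values was not tested. In tissue RNA of this kind, fewer cells of a type and less RNA per cell cannot be told apart.

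Most genes read nearly alike on the 2 arrays. Of the 9888 genes, 6641 (67.2%) were within 1.2-fold, 588 (5.95%) were 1.5-fold or more apart and 122 (1.23%) were 2-fold or more apart. At 2-fold, 49 genes (0.496% of those counted) were higher and 73 (0.738%) were lower in sample 2. At 1.5-fold, 199 (2.01%) were higher and 389 (3.93%) were lower. Changes above zero made up 45.6% and changes below zero 54.3%, around a median of -0.026. The SD across genes was 0.32, against 0.65 in the ad libitum animal, where 915 genes were 2-fold apart. Only 20 genes passed 3-fold and 3 passed 4-fold: CYP17A1, ANPEP and HES1, all lower. In 4 equal classes of signal level the SD lay between 0.31 and 0.33. From the dimmest to the brightest class 11, 12, 18 and 8 genes were 2-fold higher and 20, 20, 18 and 15 were 2-fold lower. Among the 9887 genes below the level filter, 20 were 2-fold higher and 16 lower.

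**Figure D1:**
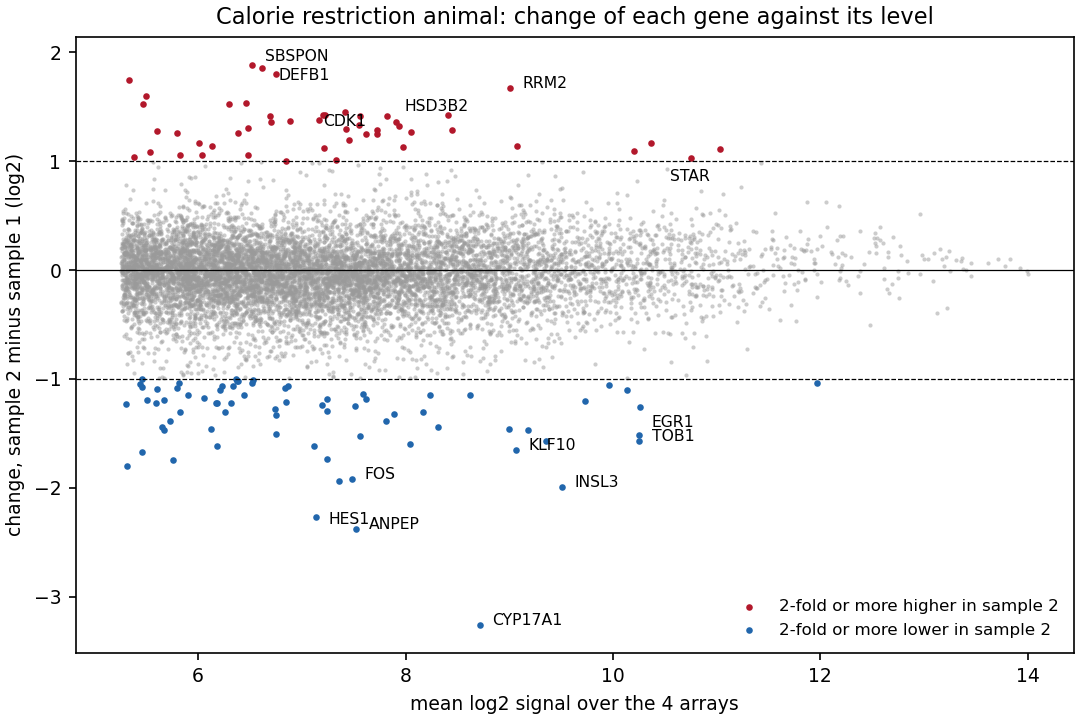
Change of each of the 9888 genes (log2, sample 2 minus sample 1 of the calorie restriction animal, vertical axis) against its mean log2 signal over the 4 arrays (horizontal axis). Each point is 1 gene, dashed lines mark 2-fold, and the 49 higher genes (red) and 73 lower genes (blue) are spread over the range of signal, with CYP17A1 (-3.26) farthest from 0.

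The threshold cut through a continuous range. NDC80 (1.00) and CDC20 (1.01), both mitotic, lay just inside the 2-fold limit, and POSTN (0.99) and ZDHHC19 (0.99) lay just outside. On the lower side POU2AF3 (-1.001) and DUSP9 (-1.005) were just inside, and PGM5 (-0.99) and LRRN1 (-0.99) just outside.

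Probe sets of one gene are separate readings of the same 2 RNA samples, and 3343 genes had more than 1 past the level filter. They show how far a change depends on which stretch of the transcript was read, although they say nothing of the spread between samples. The share of genes whose next brightest probe set had the same sign was 58.0% (798 of 1377) where the brightest differed by under 1.1-fold, and 71.2% (639 of 897) from 1.1 to 1.2-fold. It was 81.4% (730 of 897) from 1.2 to 1.5-fold, 91.4% (127 of 139) from 1.5 to 2-fold and 97.0% (32 of 33) at 2-fold or more. Agreement in sign was thus higher in each larger size class, and for the smallest changes it was near an even split. Across the 3343 genes, which share both arrays, Pearson's r between the 2 probe sets was 0.63 and Spearman's rho 0.55. The median absolute difference between them was 0.15 and the 95th percentile 0.56.

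Agreement in size was looser than agreement in sign. Of the 33 genes at 2-fold, the second probe set was also 1.5-fold or more apart in 27 and 2-fold apart in 18. The gene against the rule was HS3ST1, a heparan sulfate sulfotransferase, at -1.08 by its brightest probe set and 0.18 by the next. CYP3A4, a drug and steroid hydroxylase, agreed in sign only barely, at 1.36 and 0.09. The other 89 of the 122 genes at 2-fold had a single probe set past the filter and thus no such check.

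**Figure D2:**
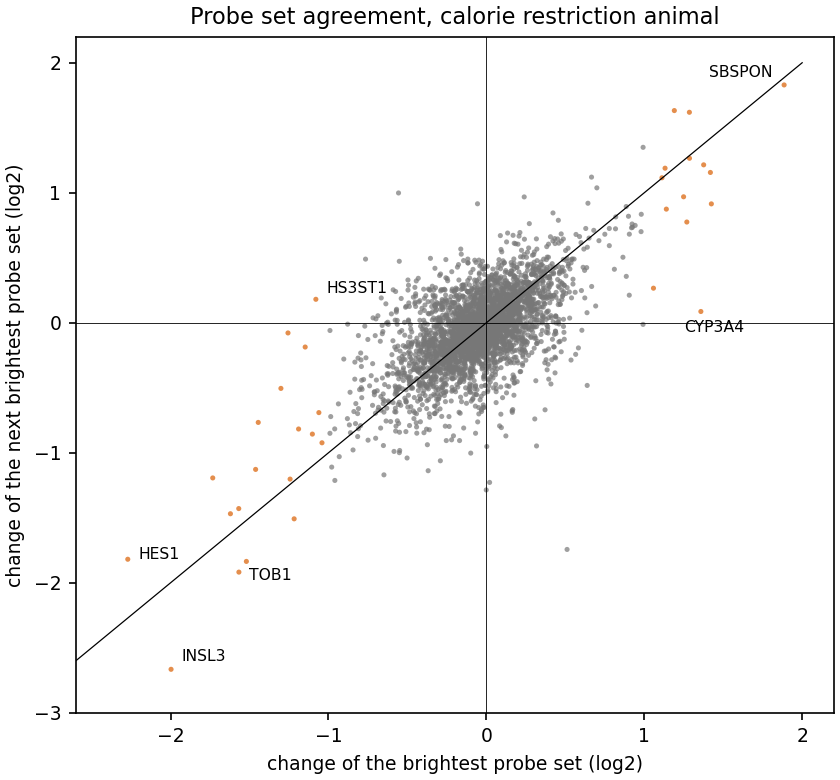
Change of the next brightest probe set (vertical axis, log2) against that of the brightest (horizontal axis, log2) for the 3343 genes with both past the level filter, in the calorie restriction animal. The diagonal marks equal change, the 33 genes at 2-fold by the brightest probe set are orange, and 32 of them have the same sign on both axes.

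Of the 33 genes at 2-fold with more than 1 probe set past the filter, 15 were 2-fold apart by every one of these probe sets. The 5 higher were SBSPON, CXCL14, CDK1, CDKN3 and PLA2G5, and the 10 lower were INSL3, HES1, TOB1, EGR1, NR4A2, NET1, DACH1, SPON1, NEFH and KLF4. SBSPON, a secreted protein with somatomedin B and thrombospondin domains, read 5.53 and 7.41 in samples 1 and 2 (3.70-fold higher), and 7.67 and 5.46 in the ad libitum animal. Its 2 probe sets gave 1.83 and 1.89. NET1, an exchange factor for RhoA, read 10.14 and 8.57 (-1.57, probe sets from -1.57 to -1.43), against 8.88 and 9.83. DACH1, a transcriptional corepressor, read 7.15 and 5.93 (-1.22), against 6.07 and 6.09. Sample 1 of the calorie restriction animal was thus the highest of the 4 arrays for NET1 and DACH1, whereas SBSPON was low in 1 sample of each animal.

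The wider set of genes that agreed on all probe sets held several whose least changed probe set was below 2-fold. All probe sets had one sign in 62.4% of the 3343 genes, positive in 802 and negative in 1284, and all were 1.5-fold or more apart in 30 higher and 48 lower genes. SOX4, a transcription factor with 4 probe sets past the filter, gave -0.92 to -1.37, and read 12.77 and 11.73. TXNIP, a thioredoxin inhibitor induced by glucose, gave -0.84 to -1.08 over 3 probe sets. THBD, the endothelial thrombomodulin, gave -0.98 to -1.11, RABGAP1 gave -0.86 to -1.10 and the zinc finger gene ZNF385B -0.96 to -1.21. On the higher side KCNK3, a potassium leak channel, gave 0.75 to 0.98 over 3 probe sets, SHB, an adaptor of receptor tyrosine kinases, 0.78 to 1.63, and LRP8, a receptor for apolipoprotein E and reelin, 0.87 to 1.14. The nuclease ISG20 (0.82 to 0.90) and SLC35D4 (both probe sets 0.89) were lower in size and as close between probe sets.

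Some of the genes with the largest changes are described first on their own. DEFB1, an epithelial antimicrobial peptide, read 6.25 and 8.11, and 7.28 and 4.82 in the ad libitum animal. The carboxypeptidase CPO was at 1.75, the neuronal growth protein GAP43 at 1.60, the bicarbonate cotransporter SLC4A4 at 1.53, the mitochondrial ornithine carrier SLC25A15 at 1.43 and RASSF8 at 1.42. GAP43 (0.72), SLC4A4 (0.54) and RASSF8 (0.47) were smaller as the mean of all their probe sets. On the lower side were the neuropeptide galanin, GAL (-1.80), the teneurin TENM4 (-1.74), the BMP antagonist CHRDL1 (-1.67), TMEM35A (-1.62), the glutathione transferase GSTM3 (-1.53), the gelatinase MMP9 (-1.51) and TMEM108 (-1.47). GSTM3 came to -0.0063 and TMEM108 to -0.20 without less specific probe sets. Sample 2 of the calorie restriction animal was the lowest of the 4 arrays for GAL, at 3.28, and for CHRDL1, at 3.72, both under the level filter on that array. TENM4 (4.63) and MMP9 (4.88) were also under the filter in that sample. In sample 1 of this animal CPO (4.34) and GAL (5.08) were under it. As the mean of all its probe sets GAL was at -0.91.

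Genes of the luteal steroid cell were higher in sample 2. Of 11 measured markers 10 passed the filter, 8 of them were positive, 4 were 2-fold higher and the median change was 0.72. Among all 9888 genes 45.6% were positive and 0.496% were 2-fold higher. STAR, which carries cholesterol into mitochondria, read 10.24 and 11.28 (2.05-fold higher), and 12.49 and 9.0 in the ad libitum animal. HSD3B2, of the pair of enzymes that make progesterone and can share signal on such arrays, read 7.11 and 8.47 (2.57-fold higher), and 9.97 and 6.06. HSD11B1, which regenerates cortisol from cortisone, read 6.85 and 8.10, against 9.87 and 5.68. The calorie restriction samples lay inside the range of the ad libitum pair for these 3 genes. The inhibin subunit INHA read 10.33 and 11.43. The side-chain cleavage enzyme CYP11A1 was at 0.77, the HDL receptor SCARB1 at 0.67, the electron donor FDX1 at 0.59 and the luteinising hormone receptor LHCGR at 0.47. Aromatase, CYP19A1 (-0.08), and the progesterone receptor PGR (-0.19) did not share the direction.

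The theca-type androgen genes went the other way by larger amounts. CYP17A1, the enzyme that turns progestins into androgens, read 8.89 and 5.63 (9.57-fold lower), and 9.57 and 10.76 in the ad libitum animal. That size rests on the 1 of its 2 probe sets past the filter, and the mean of both was -1.66. INSL3, a peptide hormone of theca cells, read 9.51 and 7.52 (3.99-fold lower), and 9.18 and 11.83, and its 3 probe sets gave -2.0 to -3.25. Sample 2 of the calorie restriction animal was the lowest of the 4 arrays for both. The whole list of 8 theca and interstitial markers, 7 past the filter, was not one-sided: 3 were positive, the median was -0.23, and mean signal was 8.62 and 7.91. PTCH1, a hedgehog receptor and target, was at -0.94 and TCF21 at -0.23, whereas GLI1 (0.27) and CYB5A (0.20) were positive. STAR belongs to both lists. The broader steroid synthesis list, which holds CYP17A1, had 12 of 16 members positive and a median of 0.22.

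Genes of cholesterol handling were mostly lower. Of 12 members past the filter only 2 were positive, SCARB1 and NPC1 (0.28), and the median was -0.25, a description not kept in 5 of 9 alternatives. MYLIP, a ligase that degrades the LDL receptor, was at -0.80, VLDLR at -0.71, the efflux pumps ABCA1 and ABCG1 at -0.47 and -0.30, and NR1H3, the oxysterol receptor that drives both pumps, at -0.43. The cholesterol synthesis list was near the background, with 6 of 15 positive and a median of -0.043. Among glucocorticoid genes 6 of 8 were negative, with the mineralocorticoid receptor NR3C2 at -1.02 and SGK1 at -0.57, and HSD11B1 was the largest against that direction.

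**Figure D3:**
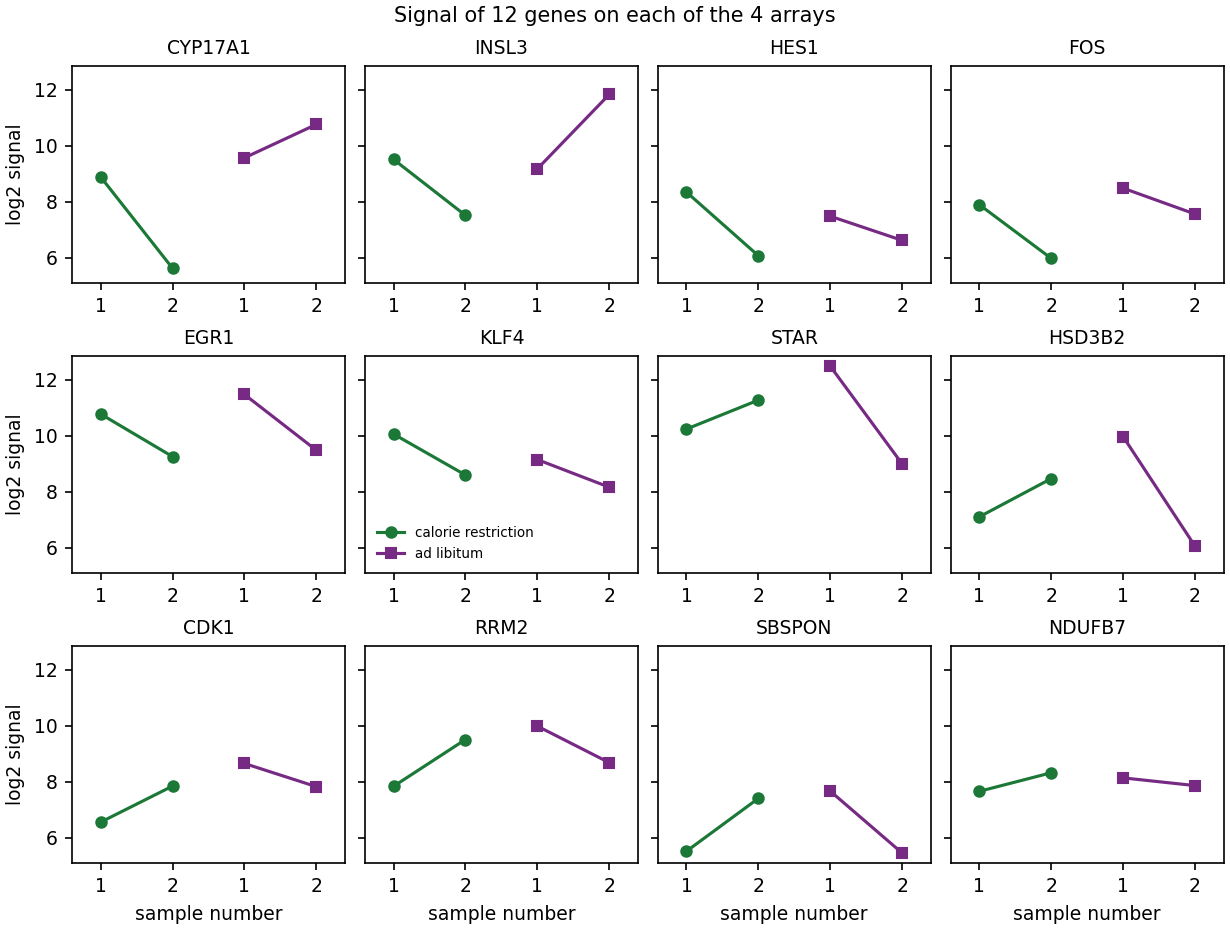
Log2 signal (vertical axis) of 12 genes in samples 1 and 2 of the calorie restriction animal (green circles) and of the ad libitum animal (purple squares), 1 array per point, with lines joining the samples of an animal. CYP17A1 and INSL3 are lowest in sample 2 of the calorie restriction animal, STAR, HSD3B2, RRM2 and SBSPON slope in opposite directions in the 2 animals, and FOS, EGR1, HES1 and KLF4 are lower in sample 2 of both.

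Mitotic genes formed the other group with large positive changes. Over the 98 measured genes of mitotic cyclins and kinases, kinetochore, spindle, and anaphase promoting complex, 53 passed the filter, 43 of these were positive, 18 were 1.5-fold and 9 were 2-fold higher, and none was 1.5-fold lower. Their median was 0.41. Over all 9888 genes 45.6% were positive, 2.01% were 1.5-fold and 0.496% were 2-fold higher, and 3.93% were 1.5-fold lower. Of the 45 members below the filter 37 were also positive, with a median of 0.27. Since these genes are dim, the filter kept 16 of 23 mitotic cyclins and kinases but 9 of 29 kinetochore and 11 of 28 spindle genes.

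CDK1, the kinase that drives entry into mitosis, read 6.57 and 7.85 (2.44-fold higher), and 8.66 and 7.83 in the ad libitum animal. Its second probe set gave 1.27. CDKN3, a phosphatase that acts on cyclin-dependent kinases, read 5.97 and 7.35, against 8.0 and 7.32. CCNB2, a cyclin partner of CDK1, read 5.49 and 6.85, against 7.82 and 7.37. For these genes sample 1 of the calorie restriction animal was the lowest of the 4 arrays, and its sample 2 lay close to sample 2 of the other animal or below it. Median changes were 0.51 for mitotic cyclins and kinases (14 of 16 positive), 0.54 for centromere and kinetochore (7 of 9) and 0.42 for spindle and cytokinesis (10 of 11). The spindle checkpoint kinase BUB1 was at 1.05, the kinetochore protein NDC80 at 1.00, the spindle assembly protein DLGAP5 at 1.53, and the cytokinesis proteins ANLN and PRC1 at 1.53 and 1.42. UBE2C, which supplies ubiquitin to the anaphase promoting complex, read 5.83 and 7.29. DLGAP5 (4.88) and ANLN (4.28) were under the level filter in sample 1 of the calorie restriction animal. As the mean of all its probe sets CCNB2 was at 0.49.

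Among the genes of DNA replication, origin licensing had 10 of 12 positive with a median of 0.15, kept in 5 of 8 alternatives judged, and its largest against that direction was the licensing inhibitor GMNN (-0.55). The replication fork list was not shifted and had 13 of 22 members positive and a median of 0.086, although RRM2, a subunit of the enzyme that makes deoxynucleotides, read 7.84 and 9.51 and PCLAF, a partner of the PCNA clamp, was at 1.80. The list of early-phase cyclins, RB and E2F factors had 3 of 17 positive and a median of -0.067, and its member at 2-fold was E2F7 (1.04), a repressor of E2F targets. Condensins and cohesins (5 of 11 positive, median -0.093) and replication-dependent histones (6 of 11, 0.0064) were not shifted. CDK1 was at 0.42 and RRM2 at 0.52 without less specific probe sets, of which the brightest for each is one. PCLAF was at 1.04 as the mean of its 2 probe sets.

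Small changes of one sign ran through the mitochondrial complexes. Over complexes I, III and IV and ATP synthase, 68 of 71 measured nuclear subunit genes passed the filter, and 64 of the 68 (94.1%) were positive, where 45.6% of all genes were. The median was 0.33. None was 2-fold and 5 were 1.5-fold higher, so the group stood out by its sign and not by the size of any member. Complex I had 29 of 31 positive (median 0.33), complex III 7 of 7 (0.25), complex IV 12 of 13 (0.31) and ATP synthase 16 of 17 (0.35). All probe sets of these genes gave a like count, 36 of 40 for complex I and 24 of 25 for ATP synthase.

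Values of single subunits were small and graded. NDUFB7, an accessory subunit of complex I, read 7.67 and 8.33, against 8.15 and 7.87 in the ad libitum animal. NDUFS6, of the electron input arm, was at 0.62, NDUFA13 and NDUFA6 at 0.54 each, and NDUFB4 and NDUFB5 at -0.07 each were the complex I genes below zero. ATP5ME, a membrane subunit of ATP synthase, read 7.82 and 8.53, and its second probe set gave 0.63. COX7A1, a complex IV isoform of muscle, read 6.43 and 7.19. The exception in complex IV was COX4I2, an isoform regulated by oxygen, which read 9.68 and 9.15 in this animal and 8.38 and 6.37 in the other. Complex II, the only respiratory complex that is also an enzyme of the tricarboxylic acid cycle, was not shifted, with 2 of 5 positive and a median of -0.0016.

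The genes that build and supply mitochondria had the same sign as the respiratory complexes. Of 69 mitochondrial ribosome genes past the filter 63 (91.3%) were positive, with medians of 0.22 for the large subunit (41 of 45) and 0.26 for the small subunit (22 of 24). MRPL14 (0.62), MRPS22 (0.52), MRPL41, MRPL17, MRPS25 and MRPS16 (each 0.51) were highest, and MRPL45 (-0.17) was the lowest of all. Protein import genes had 23 of 25 positive and a median of 0.21, led by PAM16 (0.47) and the outer membrane channel TOMM40 (0.46). Complex I assembly factors had 10 of 11 positive (0.16). The tricarboxylic acid cycle had 15 of 17 positive but a median of 0.12, below the size required to call a list shifted, which was a median at least 0.15 from that of all genes with 3 in 4 members of one sign.

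**Figure D4:**
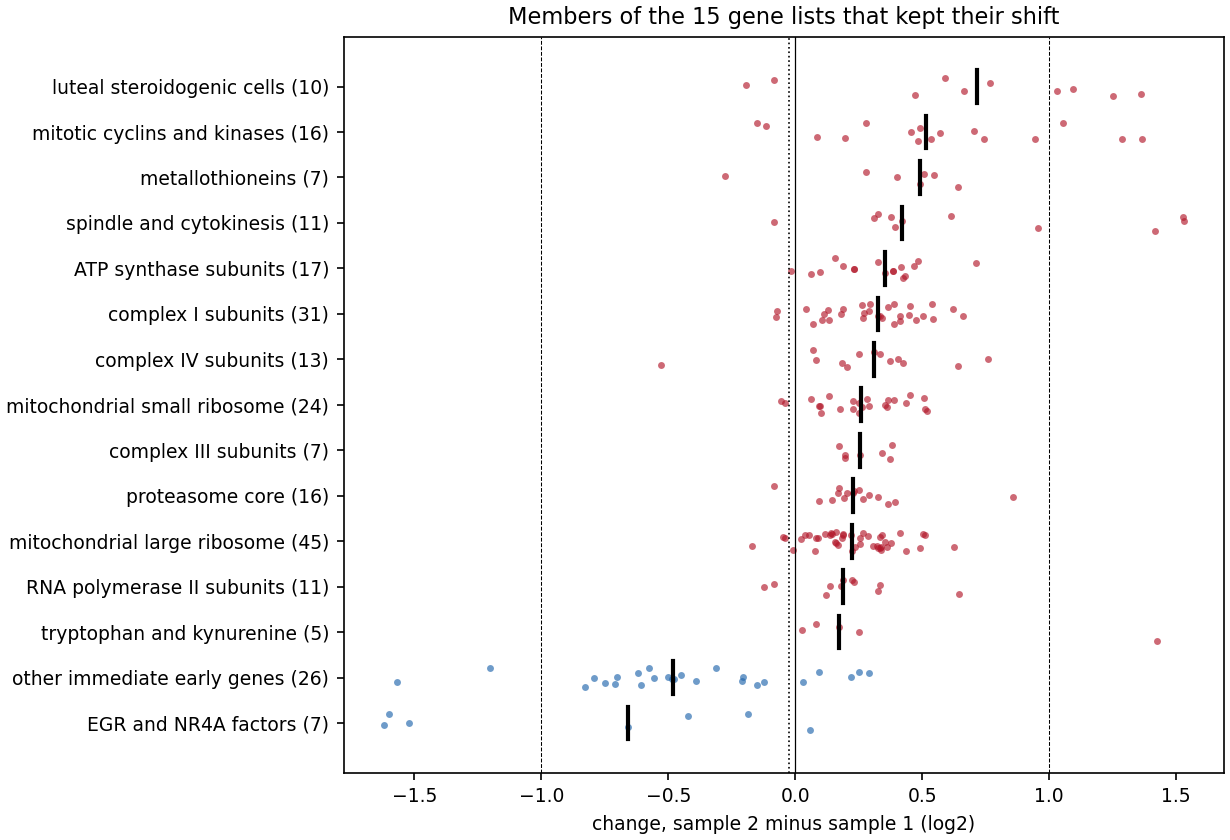
Change of each member past the level filter (points, log2, sample 2 minus sample 1 of the calorie restriction animal) in the 15 gene lists that stayed shifted under every processing alternative in which they could be judged (9 alternatives for 10 lists, 8 for the other 5), with the number of members in brackets and the list median as a black bar. The dotted line is the median of all 9888 genes (-0.026) and dashed lines mark 2-fold; no member of the mitochondrial and proteasome lists is beyond 2-fold, whereas the steroid, mitotic and immediate early lists hold members that are.

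Ribosomal and proteasome subunits showed the same kind of small change. Cytosolic ribosomal protein genes were positive in 52 of 57 (91.2%), with medians of 0.15 for each subunit, and none reached 1.5-fold. That median lies near the limit of the rule, and each subunit's list was not kept in 5 of 9 alternatives. The proteasome had 29 of 33 positive. Its catalytic core had a median of 0.23 (15 of 16 positive, and 22 of 23 probe sets), led by PSMB10, a subunit of the immunoproteasome, which read 8.30 and 9.15. The other 2 immunoproteasome subunits, PSMB8 (-0.08) and PSMB9 (0.09), did not differ that way. The regulatory particle had 14 of 17 positive (0.17) but 17 of 24 probe sets, led by the deubiquitinase PSMD14 (0.49). Its list was not kept in 3 of 9 alternatives. All 7 genes of the chaperonin TRiC were positive (0.16), as were 9 of 11 RNA polymerase II subunits (0.19), with POLR2L at 0.64 and the catalytic subunit POLR2A at -0.12. Other lists of protein synthesis and decay were not shifted: initiation factors had 21 of 37 positive (0.030), ribosome biogenesis factors 14 of 24 (0.048), autophagy genes 10 of 29 (-0.096) and lysosomal enzymes and membrane proteins 6 of 24 (-0.14).

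A pair of smaller metabolic families were higher as well. Metallothioneins, which bind zinc and copper, had 6 of 7 positive and a median of 0.49, with MT1H at 8.64 and 9.28 and MT2A at 8.87 and 9.38. Their genes are near copies, so probe sets of one can read another, and the 7 values are not separate measurements. Without less specific probe sets, only 2 genes with MT symbols passed the filter, too few to judge, with 1 positive and a median of -0.012. All 5 kynurenine pathway genes past the filter were positive (0.17), but 4 of them lay between 0.03 and 0.25, and KYNU, which cleaves kynurenine, stood alone at 1.42, with 0.91 by its second probe set.

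Immediate early genes are transcription factors and regulators that cells induce within minutes of a signal. Lists of these genes and of the families they belong to were lower as a group, and not every family member is such a gene. Over the EGR and NR4A, AP-1, KLF and remaining immediate early lists, 54 of 67 genes passed the filter. Of the 54, 23 were 1.5-fold and 10 were 2-fold lower, against 3.93% and 0.738% of all genes. There were 44 negative genes among the 54, where 54.3% of all genes were negative, and the median was -0.49. The 13 members below the filter did not share this, with 7 positive and a median of 0.012. FOS read 7.90 and 5.98 (3.77-fold lower), and 8.49 and 7.57 in the ad libitum animal. EGR1 read 10.78 and 9.26, against 11.48 and 9.49, and its 3 probe sets gave -1.52 to -1.84. TOB1, an inhibitor of proliferation, read 10.86 and 9.29, against 10.98 and 9.88. Sample 2 was the lower one in both animals for these genes.

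The families differed in how evenly their members were lower. EGR and NR4A factors had a median of -0.66, with NR4A2 at -1.62, EGR3 at -1.60, EGR1 at -1.52, NR4A1 at -0.66 and the corepressor NAB1 at 0.06. AP-1 factors had a median of -0.51, with JUN at -0.93, JUNB at -0.86, MAF at -0.79 and FOSL2 at -0.67, but the small Maf protein MAFF was at 0.82 and 0.81 by its 2 probe sets. KLF factors had 9 of 11 negative and a median of -0.55: KLF10 at -1.65, KLF4 at -1.46, the endothelial factor KLF2 at -1.30 and the metabolic factor KLF15 at -1.14. The AP-1 list was no longer shifted in 4 of 9 alternatives and the KLF list in 2 of 9. KLF2 read 9.16 and 7.86 here and 7.80 and 7.85 in the other animal, and KLF15 read 6.30 and 5.16, against 6.68 and 7.64. For KLF2 the 3 other arrays lay between 7.80 and 7.86, and sample 1 of the calorie restriction animal stood above them. The remaining immediate early genes had a median of -0.48, with the small GTPase RHOB at -1.20, the matricellular protein CCN1 at -0.83, IER2 at -0.79 and MYC at -0.75.

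Blood vessel genes were lower by smaller amounts. Of 20 endothelial markers 19 passed the filter, and 16 of these were negative, where 54.3% of all genes were. The list median was -0.23 and mean signal was 7.80 and 7.44. SOX18, a transcription factor of vessels, was at -1.23, the angiopoietin receptor TEK at -1.08, TIE1 at -0.82, SOX17 at -0.75 and MMRN2 at -0.72. Abundant markers differed less, with VWF at -0.14, ENG at -0.08 and KDR at -0.07, and EMCN (0.18), CLEC14A (0.15) and ROBO4 (0.39) were positive. Angiogenic ligands and receptors had 12 of 17 negative and a median of -0.42, with ANGPT2 at -0.94, the vasodilator ADM at -0.98 and VEGFA at 0.01, and did not reach 3 in 4 of one sign.

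Notch genes overlapped with this pattern. Of 19 members 15 were negative, with a median of -0.22 that was not kept in 8 of 9 alternatives. The negative members included the target HES1, the ligand JAG1 at -0.81, the target HEY2 at -0.78 and the receptor NOTCH2 at -0.56. HES1 read 8.35 and 6.08 (4.83-fold lower), against 7.49 and 6.63, and its 2 probe sets past the filter gave -1.82 and -2.27. Both of those probe sets are of a less specific design, and without them the remaining, dimmer one gave 0.082, so the size for HES1 rests on them. ANPEP, an aminopeptidase, at -2.38 from a single such probe set, likewise came to 0.11 without it. Retinoid genes had 9 of 11 negative and a median of -0.38, but kept that description in 2 of 9 alternatives, with medians up to -0.012. The retinoic acid enzyme ALDH1A2 read 7.97 and 6.78, with the retinol dehydrogenase RDH10 at -0.81 and DHRS3 at -0.66. The exceptions were the enzyme ALDH1A1 (0.22) and the retinoic acid carrier CRABP2, at 7.2 and 8.61.

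Several other lists were lower by the same rule. The BCL2 family had 8 of 9 negative (median -0.32, not kept in 5 of 8 alternatives judged), with both BCL2 (-0.57), which restrains cell death, and BCL2L11 (-0.46), which promotes it, on that side. Complement had 13 of 17 negative (median -0.21, not kept in 8 of 9 alternatives), with C1S at -0.87 and SERPING1, the inhibitor of the C1 proteases, at -0.70. Chemokine receptors had 5 of 6 past the filter negative (-0.45), with ACKR3 2-fold lower at -1.15, but the median over all 21 members was -0.033. Of the chemokines themselves 8 of 36 passed the filter, CXCL12 (-1.44) and CXCL10 (-1.19) were 2-fold lower and CXCL14 was 2-fold higher. CXCL14 read 8.05 and 9.33, against 10.17 and 6.25, but came to -0.10 without less specific probe sets.

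Markers of further cell types were mixed. Smooth muscle and pericyte markers divided: ACTG2 (9.16 and 10.32), TAGLN (10.11 and 11.22), SYNPO2 (1.27) and ACTA2 (0.99), genes of the contractile apparatus, were higher, whereas the pericyte genes RGS5 (-0.43), PDGFRB (-0.32) and KCNJ8 (-0.29) were lower. Mean signal of that list was 8.15 and 8.50, with 10 of 14 positive. One of the 3 probe sets of TAGLN gave 0.17. Fibroblast markers had 9 of 11 positive but a median of 0.11, with MFAP5 at 1.31. Macrophage markers had 6 of 15 positive and a median of -0.063, with the chitinase CHIT1 the only one at 2-fold (-1.94). CHIT1 read 5.95 and 4.02, against 7.93 and 11.51 in the ad libitum animal. Its signal in sample 2 of the calorie restriction animal was thus under the level filter. Major histocompatibility class II genes had 1 of 9 positive and a median of -0.16. Of 7 red blood cell genes 2 passed the filter, both positive, and the surface epithelium list had 3 of 9 past the filter, with KRT18 at 1.30. Oocyte (3 of 11), neutrophil (1 of 10), mast cell (1 of 6) and B cell (2 of 9) markers were too few past the filter to describe.

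Of 132 gene lists, 120 had 5 or more members past the filter, and 23 of them were shifted higher and 12 lower by the rule of size above. The other 85 did not meet the rule. Some of these had medians as far from that of all genes but too few members of one sign, such as chemokines (3 of 8 positive, -0.63), BMP genes (7 of 15, -0.30) and adipokines and their receptors (6 of 9, 0.26). So did fatty acid oxidation (11 of 16 positive, 0.13) and the antioxidant list (18 of 26, 0.17, with the glutathione enzyme GCLC at 0.75). Lists with medians nearer that of all genes included glycolysis (14 of 19 positive, 0.089), sirtuins (3 of 6, -0.0094), insulin and IGF genes (3 of 13, -0.10), heat shock chaperones (10 of 18, 0.0088) and collagens (15 of 26, 0.081). The circadian clock list had a median of -0.32 but 4 of 15 positive, with PER2 at -0.63, CRY2 at -0.72, NR1D2 at -0.51 and RORA at 0.64. A housekeeping list had 5 of 11 positive and a median of -0.025.

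Small coordinated changes were also sought by gene name, in a survey made after values had been seen. Genes past the filter were grouped by the letters that begin their symbols, and 159 such groups had 8 or more members. By the same rule 17 were higher and 20 lower. The higher groups were mostly the families already described, together with CHCHD, small proteins of the mitochondrial intermembrane space (8 of 8 positive, 0.28), COPS, subunits of the COP9 signalosome (8 of 9, 0.26), LSM, RNA-binding ring proteins (10 of 13, 0.22), and HSD, hydroxysteroid dehydrogenases and relatives (9 of 10, 0.30). COPS came to 0.0041 without less specific probe sets and 0.064 with probe sets averaged, LSM to 0.12 and 0.13, and neither was then shifted.

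The lower groups were largely regulators of transcription and chromatin, most of which the lists had not covered. The list of ZNF zinc finger genes had 54 of 198 positive and a median of -0.13. KDM, the histone demethylases, had 14 of 15 negative and a median of -0.35. KMT, histone methyltransferases, had 7 of 8 negative (-0.25), PHF, proteins with a plant homeodomain finger, 13 of 14 (-0.25), and ZBTB zinc finger factors 26 of 32 (-0.24). Together these 4 groups held 69 genes, 60 of them negative, none 2-fold and 4 of them 1.5-fold lower, with a median of -0.28. ZBTB7C (6.95 and 6.08) and KMT5B (8.98 and 8.15), which methylates histone H4, were the lowest. KDM4A, a demethylase of histone H3, read 7.49 and 6.80, and its second probe set gave -0.67. For KMT5B one of 3 probe sets gave -0.21. Further groups were the BCL genes (14 of 15 negative, -0.43), genes named NR (14 of 16, -0.31) and CHST sulfotransferases (9 of 10, -0.28). The NR group is mostly nuclear receptors, but its negative members include NR2C2AP and the antisense RNAs NR2F1-AS1 and NR2F2-AS1. Groups were made by symbol, so not every member need have the function named. Over the 9 alternatives KDM, KMT and PHF kept the description in 8 and ZBTB in 7. In the ad libitum animal the 69 KDM, KMT, PHF and ZBTB genes had 17 negative and a median of 0.28.

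The sign of a change went with gene size. With the span of each gene taken from the RefSeq vervet annotation (assembly mChlSab1.0.hap1, matched for 9332 of the 9888 genes), genes were divided into 4 equal classes with median spans of 6.12, 19.9, 46.2 and 140 kb. Their median changes were 0.054, -0.011, -0.041 and -0.12, and 57.7%, 48.2%, 42.7% and 32.4% were positive. Spearman's rho between span and change was -0.22 across genes, which share both arrays, and 0.022 in the ad libitum animal. Median spans of the 17 higher symbol groups ranged from 2.08 kb (MT, where 1 of 8 genes had a span) to 21.8 kb (HSD), with a median of 10.1 kb. Those of the 20 lower groups ranged from 7.13 kb (IRF) to 182 kb (TCF), with a median of 41.4 kb, so the ranges overlapped. The part of span in the list values was not tested.

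The ad libitum animal gives the only other pair of arrays to set beside these values. Of the 49 genes 2-fold higher in the calorie restriction animal, 44 were negative in the other, 31 of them by 2-fold or more, with a median of -1.63. Over all 9888 genes 51.4% were negative and 6.58% 2-fold lower in that animal. Sample 1 of the calorie restriction animal was the lowest of the 4 arrays for 23 of the 49, and its sample 2 the highest for 13. Of the 73 genes 2-fold lower, 46 were positive and 27 negative in the other animal, with 23 and 11 at 2-fold. Of all 9888 genes 48.5% were positive and 2.67% 2-fold higher in that animal. For 49 of the 73, sample 2 of the calorie restriction animal was the lowest of the 4 arrays, and for 34 its sample 1 was the highest. Both sets were chosen by the gap between these 2 samples, so such ranks are partly built in. They are given without a share over all genes. Sample 2 of the calorie restriction animal lay between the ad libitum samples for 29 of the 49 higher genes and for 18 of the 73 lower genes.

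Lists divided in the same manner. Of the 68 respiratory genes, 59 were positive in the calorie restriction animal and negative in the other, and so were 54 of 69 mitochondrial ribosome genes and 29 of 33 proteasome genes, where 27.3% of all 9888 genes were. Of the cytosolic ribosomal protein genes 47 of 57 were positive in both animals, against 18.3% of all genes. In the pooled immediate early, AP-1 and KLF lists 27 of 54 genes were negative in both, against 24.1%. These lists were described for their sign in the calorie restriction animal, which by itself raises such joint shares. Among members with that sign, 59 of 64 respiratory, 54 of 63 mitochondrial ribosome, 29 of 29 proteasome and 27 of 44 immediate early genes were negative in the other animal. Of the cytosolic ribosomal genes 47 of 52 were positive there. Among all genes, 2695 of 4505 positive and 2382 of 5368 negative ones were negative there, and 1807 of the 4505 were positive. The difference between the animals was not tested, since each change is 1 array against 1, and if the order of sampling were reversed in 1 animal its signs would turn.

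**Figure D5:**
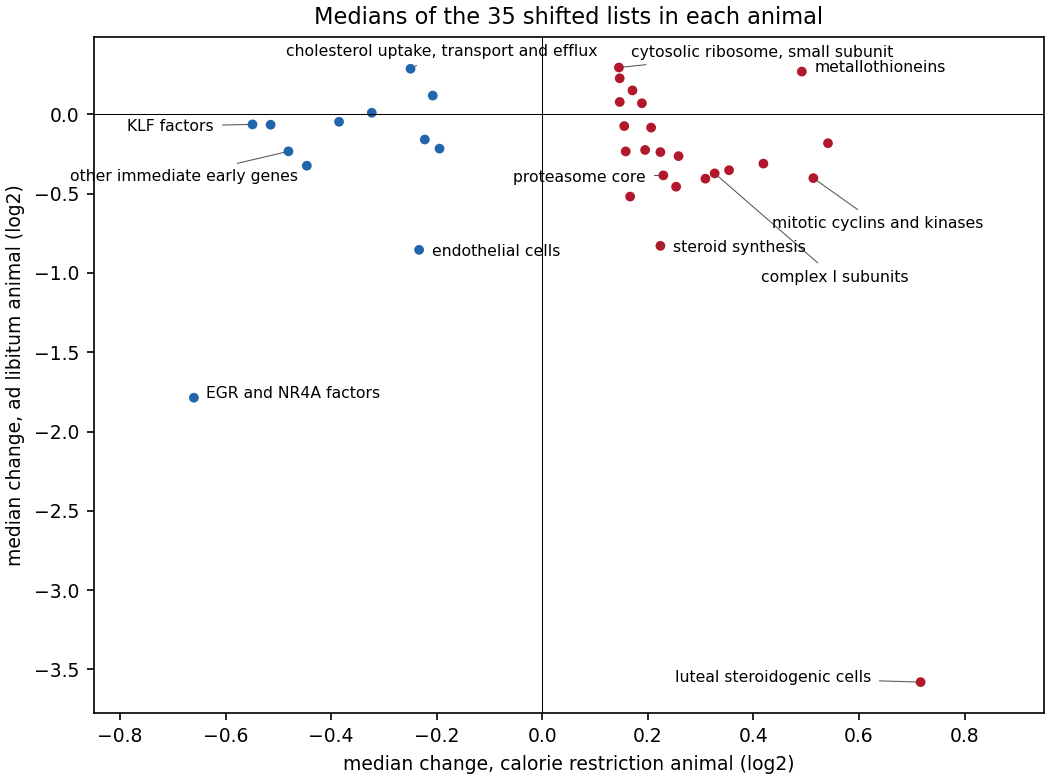
Median change of the 35 shifted lists (log2, sample 2 minus sample 1) in the calorie restriction animal (horizontal axis) and in the ad libitum animal (vertical axis), 1 point per list, red where higher and blue where lower in the calorie restriction animal. The luteal list is at 0.72 and -3.58, complex I at 0.33 and -0.37, and EGR and NR4A factors at -0.66 and -1.79.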

How the data were processed

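Frozen luteal tissue gave total RNA, which was converted to labelled cRNA for hybridisation to an array each, per the labels' protocols. The authors deposited 1 log2 value for every probe set and array, from RMA in Affymetrix Power Tools per the submitters' processing notes, without stated versions. Probe-level files were not used here, and the number of arrays limits precision.

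Of 54675 probe sets, 62 were controls, 41091 had 1 gene symbol, 1801 several and 11721 none in the platform annotation. Only those with 1 symbol were named. Of 19775 genes, 15504 (78.4%) matched a vervet RefSeq symbol or synonym. The probe set of highest mean signal stood for a gene, and genes under the median (5.26) were not counted. Mismatch of human probes to vervet RNA can lower a signal, alike in both samples of an animal.

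The change was sample 2 minus sample 1. Thresholds of 2-fold and 1.5-fold, and the rule for a shifted list (at least 5 members past the filter, 75% of one sign, median 0.15 or more from that of all genes), are rules of size and not tests. Members and lists were chosen with earlier results of these data known. Genes were named from the 20 largest changes each way, the 15 each way with the largest smallest change over all probe sets, and list members at 2-fold or leading a shifted list. The genes named from the survey by symbol, and some further list members, were chosen after their values were seen. Alternatives were 3 level filters, quantile and cyclic loess normalisation (limma 3.58.1, R 4.3.3), centring, the mean or median probe set, and leaving out less specific probe sets. The script was tested on simulated data. Tables were made with Python 3.11.15 and pandas 2.3.3.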

Additional observations from a re-analysis of the deposited data

Results flagged for a closer look

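For 12 of the 35 shifted lists, at least 3 in 4 members had one sign in the calorie restriction animal. At least 3 in 4 had the opposite sign in the ad libitum animal, each animal being counted apart. The same members need not be opposed: in steroid synthesis 10 of 16 were positive in the first animal and negative in the second. The difference between the animals was not tested, because each change is 1 array against 1. Medians in the calorie restriction and ad libitum animals were 0.72 and -3.58 for luteal steroidogenic cells, 0.22 and -0.83 for steroid synthesis, and 0.42 and -0.31 for spindle and cytokinesis. They were 0.33 and -0.37 for complex I, 0.25 and -0.46 for complex III, 0.31 and -0.41 for complex IV, and 0.35 and -0.35 for ATP synthase. The mitochondrial large ribosome was at 0.22 and -0.24 and the small at 0.26 and -0.26, and the proteasome core was at 0.23 and -0.38 and its regulatory particle at 0.17 and -0.52. Cholesterol uptake, transport and efflux was the only list with the other pair, at -0.25 and 0.29. The hybridisation controls had the same pair of signs as the first 11, with mean differences of 0.45 and -0.72, and their part was not tested.

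Probe sets with no gene symbol were outside the comparison of genes. Of 11721, 1345 passed the level filter and 17 (1.26%) were 2-fold apart in the calorie restriction animal, 8 higher and 9 lower, against 1.23% of named genes.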

How the results depend on the processing

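With 1 array a side no alternative gives an error, so each shows only what the handling of probe sets changes. Against 122 genes at 2-fold, the count was 59 with the filter at the upper quartile (26 higher, 33 lower) and 80 when a gene's probe sets were averaged (46 lower). The other alternatives stayed within 1.5 times. Agreement of the second probe set at 2-fold was 83.8% with the filter at the lower quartile, 79.4% with none and 100% (12 of 12) at the upper quartile. Of the 35 shifted lists, 24 could be judged under all 9 alternatives and 11 under 8. In those, 15 kept their description (10 under 9 and 5 under 8), 2 lost it in 1 and 18 in 2 or more, and no median turned. Without less specific probe sets 19 lists were shifted, 16 of them among the 35, the fewest kept, and with medians set to 0 the most were kept (32). The cytosolic ribosome lists lost the description under 5 alternatives each, and complement and Notch genes under 8. The AP-1, steroid synthesis and glucocorticoid lists lost it under 4 of 9, and chemokine receptors under 4 of 8. The proteasome regulatory particle lost it under 3 of 9, and KLF factors, endothelial markers and complex I assembly factors under 2 of 9. Centromere and kinetochore genes lost it under 2 of 8. Over all alternatives, 476 values of named genes stayed in direction and size, 39 moved and 4 reversed, all 4 without less specific probe sets: CXCL14 (-0.10), POSTN (-0.093), ANPEP (0.11) and HES1 (0.082). Of the symbol groups, 4 of 17 higher and 3 of 20 lower were kept under all alternatives. No paired analysis was possible because each group holds 1 sample.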
